A study of Mus musculus with 8 samples.

Results

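RNA from Ly6C-high monocytes, the classical subset, of the marrow of Bcl6 cKO mice, a conditional knockout of the transcription factor Bcl6, was compared with RNA from the same subset of Irf2 KO mice, a knockout of the transcription factor Irf2. Each genotype had 2 RNA-seq libraries, so the comparison used 4 of the 8 libraries of the series. The other 4 libraries came from wild-type (WT) mice and from Nr4a1 KO mice, which lack the nuclear receptor Nr4a1. Genes entered when their mean over the 8 libraries was at least 0 on the log2 CPM scale. CPM is reads per 1000000 reads of the library, with the library size as scaled in the deposited table. That rule kept 12752 of the 13744 genes in the deposited table. The gene just inside it was 1700008J07Rik, with a mean of 0.00121, and the gene just outside was Rnf43, with a mean of -0.00111. The sources used here do not give the deleted exons, the Cre driver of the conditional allele or the age and sex of the mice. Nor do they tie each replicate to its own mouse, so the p-values rest on a spread between samples that may be technical.

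Bcl6 is a zinc-finger repressor that recruits corepressors to DNA and is best known from germinal centre B cells. Irf2 is an interferon regulatory factor that binds the interferon-stimulated response element, and it is known both as an antagonist of Irf1 at interferon-responsive genes and as an activator of some genes. Classical monocytes leave the marrow with the help of the chemokine receptor Ccr2, and some of them turn into Ly6C-low nonclassical monocytes, which patrol the vessel wall and depend on Nr4a1 in mice.

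The libraries labelled Bcl6 cKO held 62633123 and 52847486 reads on genes and the Irf2 KO libraries 47809135 and 55920882. A level of 1 CPM stood for 47.9 to 61.8 reads across the 8 libraries. The labelled cell type was carried by its markers in all 4 libraries. Ly6c2, a gene of the Ly6C antigen, lay at 12.04 and 12.29 log2 CPM in the libraries labelled Bcl6 cKO and at 12.29 and 12.61 in Irf2 KO, and Ccr2 lay at 10.08 and 9.93 against 9.83 and 10.12. Between the replicates 197 genes differed more than 2-fold in the libraries labelled Bcl6 cKO and 429 in Irf2 KO. Any library of one genotype differed that much from any of the other in 945 to 1120 genes.

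The targeted genes were examined first. Bcl6 (ENSMUSG00000022508, chromosome 16, 23965052 to 23988852, minus strand, on GRCm38) lay at 6.53 and 6.40 log2 CPM in the libraries labelled Bcl6 cKO and at 3.37 and 3.79 in Irf2 KO, with WT at 4.66 and 4.64. The transcript of the targeted gene was thus highest in the libraries that carry its knockout label, and WT lay between the groups. The difference, given throughout as the libraries labelled Bcl6 cKO minus Irf2 KO on the log2 scale, was 2.88 ± 0.16 (SE, n = 2 per genotype, limma with Benjamini-Hochberg adjustment over 12752 genes, adjusted p = 0.00021). Reads were counted over the whole gene, so a transcript that has lost some exons still counts and the value does not check the deletion. Because the level goes against the label, every direction below holds for the libraries labelled Bcl6 cKO. Irf2 (ENSMUSG00000031627, chromosome 8, 46739732 to 46847458, plus strand) lay at 7.10 and 7.29 in those libraries against 6.50 and 6.69 in Irf2 KO. The Irf2 KO libraries were the lower ones without overlap, by 0.60 ± 0.14 (adjusted p = 0.0314), and the Irf2 transcript was still present in both. That call ended without any one of the 4 libraries compared (adjusted p up to 0.198). Nr4a1 lay at 4.49 and 4.56 in the libraries labelled Bcl6 cKO and at 2.59 and 2.52 in Irf2 KO, a difference of 1.97 ± 0.27 (adjusted p = 0.00516) that ended without either library labelled Bcl6 cKO (adjusted p up to 0.0588).

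By limma, 1218 genes (9.55% of all tested) differed between the genotypes at a Benjamini-Hochberg adjusted p under 0.05. Of these, 724 (5.68% of all tested) were higher in the libraries labelled Bcl6 cKO and 494 (3.87%) were higher in Irf2 KO. The larger differences leaned further to one side, with 341 called genes more than 2-fold higher in the libraries labelled Bcl6 cKO and 135 in Irf2 KO (476 in all, 3.73% of all tested), and 103 and 21 more than 4-fold higher. The median difference of all genes was -0.00012 and the median fold of the called genes was 1.78. The libraries of the groups did not overlap in 61.8% of all genes, so that non-overlap alone says little here. With each library centred on its median, which moved all differences by about 0.03, the share of calls higher in the libraries labelled Bcl6 cKO went from 59.4% to 53.4%. The number of calls rested on the replicates. It was 138 without Bcl6 cKO replicate 1, 155 without Bcl6 cKO replicate 2, 590 without Irf2 KO replicate 1 and 356 without Irf2 KO replicate 2, and 98 genes passed whichever of the 8 libraries was left out, 78 of them higher in the libraries labelled Bcl6 cKO and 20 higher in Irf2 KO. None of the called genes changed sign under any alternative. The groups did not overlap in any of the 1218, so leaving out a library could not have changed a sign.

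**Figure D1:**
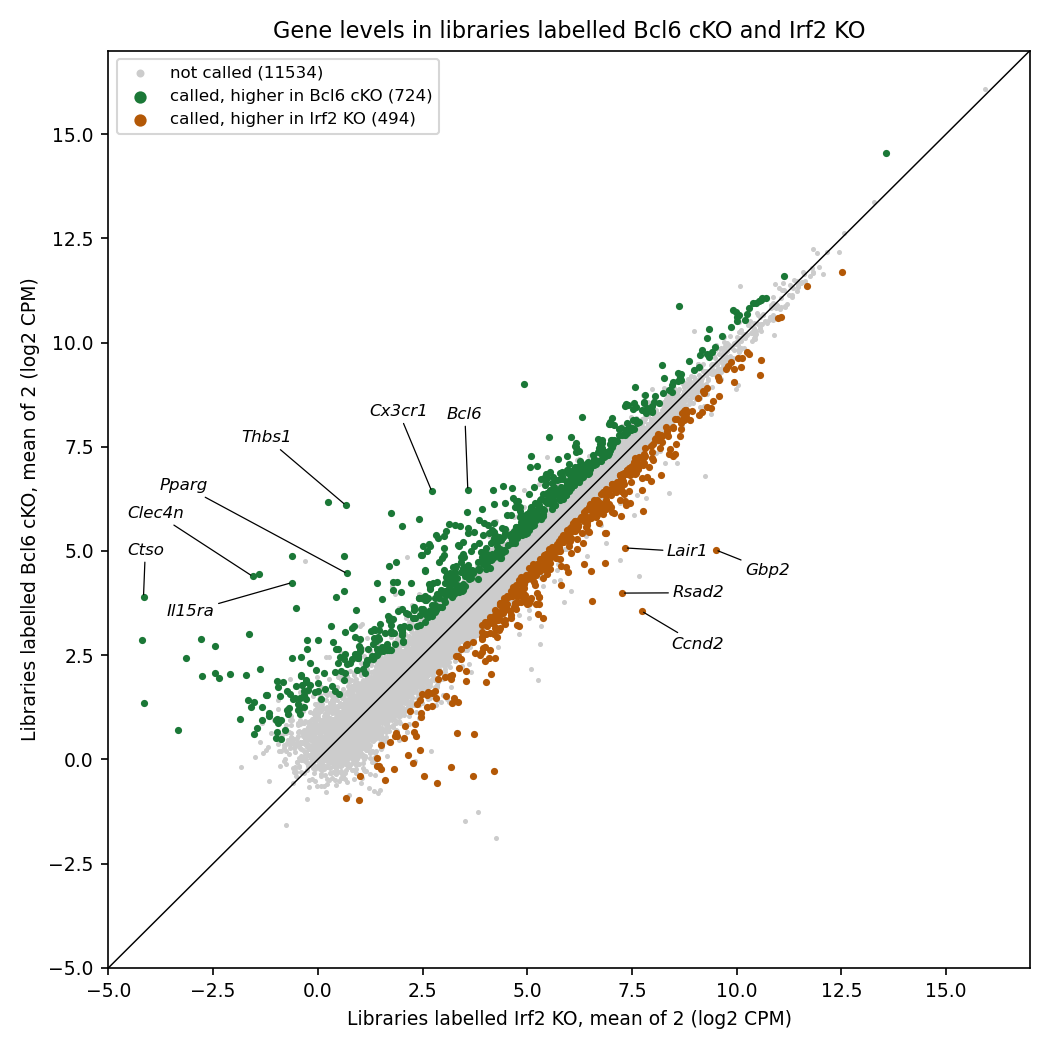
Mean level of each of the 12752 genes (log2 CPM, mean of 2 libraries) in Irf2 KO on the x axis and in the libraries labelled Bcl6 cKO on the y axis, with the line of equal levels. Green points are the 724 genes called higher in the libraries labelled Bcl6 cKO and orange points the 494 called higher in Irf2 KO; far from the line, the green points outnumber the orange ones (103 against 21 beyond 4-fold).

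The genes with the largest excess in the libraries labelled Bcl6 cKO, among called protein-coding genes with a mean of at least 2 log2 CPM over the 4 libraries, were of various roles. Thbs1, which encodes the matrix protein thrombospondin 1 (chromosome 2, 118111876 to 118127133), lay at 5.94 and 6.27 log2 CPM against 0.66 and 0.66 in Irf2 KO. WT, at 4.94 and 4.06, lay between the groups and nearer to the libraries labelled Bcl6 cKO. The difference was 5.44 ± 0.53, or 43.5-fold (adjusted p = 0.00178). Pparg, the fatty acid-sensing nuclear receptor (chromosome 6, 115360951 to 115490399), lay at 4.32 and 4.61 against 1.22 and 0.17. Here WT, at 1.36 and 0.90, lay beside Irf2 KO, and both libraries labelled Bcl6 cKO stood apart. The difference was 3.77 ± 0.39, or 13.6-fold (adjusted p = 0.00214). Tmcc3, a transmembrane coiled-coil gene, was 19.3-fold higher at 5.02 and 4.75 against 0.80 and 0.43, with WT between the groups at 2.06 and 2.15. Ncam1, a neural cell adhesion molecule, lay at 5.96 and 5.59 against 2.87 and 1.96, and Cyp4v3, a fatty acid hydroxylase gene, at 3.89 and 4.17 against 1.08 and 0.15. In these last genes WT lay beside the libraries labelled Bcl6 cKO (6.15 and 5.61 for Ncam1, 3.69 and 4.27 for Cyp4v3). The excess was thus set by a low level in Irf2 KO. Cyp4v3 (45304944 to 45333216) lies on chromosome 8, as does the targeted Irf2 (46739732 to 46847458). Any part of that position in its difference was not tested. The calls of Thbs1, Pparg, Tmcc3, Ncam1 and Cyp4v3 passed whichever library was left out. The remaining genes of these 12 were H2-Aa, H2-Eb1, H2-Ab1, Cd74, Cx3cr1, Cd33 and Hpgd, described with their groups.

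The 12 largest differences in the direction of Irf2 KO belonged to genes of various roles. Ccnd2, which encodes cyclin D2 (chromosome 6, 127125162 to 127152193), lay at 3.70 and 3.40 log2 CPM in the libraries labelled Bcl6 cKO and at 7.93 and 7.54 in Irf2 KO, with WT at 3.02 and 3.06. Irf2 KO alone stood apart, and the difference was -4.18 ± 0.48 (18.1-fold, adjusted p = 0.00277). Lair1, an inhibitory collagen receptor, lay at 5.09 and 5.06 against 7.09 and 7.60, with WT at 4.90 and 5.04, a difference of -2.27 ± 0.23 (adjusted p = 0.00207). Tmem67, a cilium membrane protein gene, lay at 1.95 and 1.77 against 4.02 and 3.99, also with WT beside the libraries labelled Bcl6 cKO. Rps6ka4, which encodes the kinase MSK2, was an exception to that order. It lay at 1.17 and 1.60 against 3.24 and 3.45 with WT highest at 4.09 and 4.31, and the Nr4a1 KO libraries were lower still at 0.10 and 0.13. These 4 calls passed whichever library was left out. Cnn3, an actin-binding calponin, was 8.60-fold higher in Irf2 KO (0.64 and 0.59 against 3.86 and 3.58). Fgl2, a fibrinogen-like protein, was 6.68-fold higher, Irf2bpl, an Irf2-binding protein-like gene, 4.27-fold and Slc28a2, a nucleoside transporter, 3.98-fold. The calls of these last genes each ended without at least both libraries labelled Bcl6 cKO, left out in turn (adjusted p up to 0.182, for Irf2bpl, which was also lost without Irf2 KO replicate 2). The others of the 12 largest, Gbp2, Rsad2, Cmpk2 and Ms4a3, follow with their groups.

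**Figure D2:**
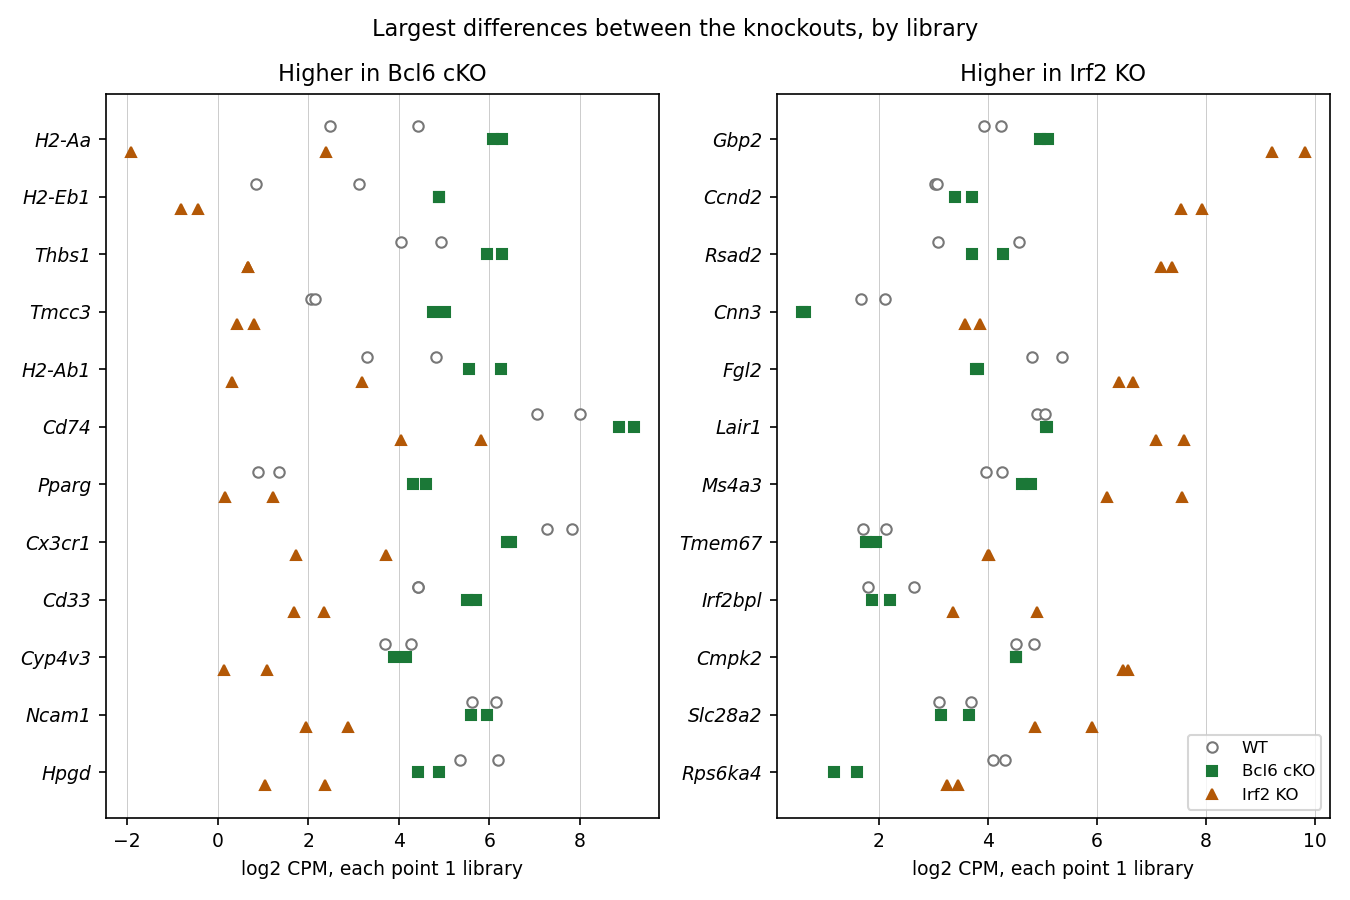
Level of the 12 genes with the largest difference in each direction, with log2 CPM on the x axis and each point 1 library. Open circles are WT, squares the libraries labelled Bcl6 cKO and triangles Irf2 KO; for Pparg the squares stand apart from both other groups, while for Ccnd2 and Lair1 the triangles do.

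Calls were unequally spread over the gene lists. Lists of myeloid surface receptors, cytokine receptors, cathepsins, prostaglandin genes and inflammasome genes held calls mostly or wholly in the direction of the libraries labelled Bcl6 cKO. Lists of DNA replication, cyclins, primary granule proteins and mitochondrial translation held calls mostly or wholly in the direction of Irf2 KO. The counts below are to be read against the 5.68% and 3.87% of all genes tested that were called in each direction. Several lists lay near or under the 9.55% called in either direction, among them Notch pathway genes at 10%, type I interferon-stimulated genes at 8%, and neutrophil genes at 5.56%.

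**Figure D3:**
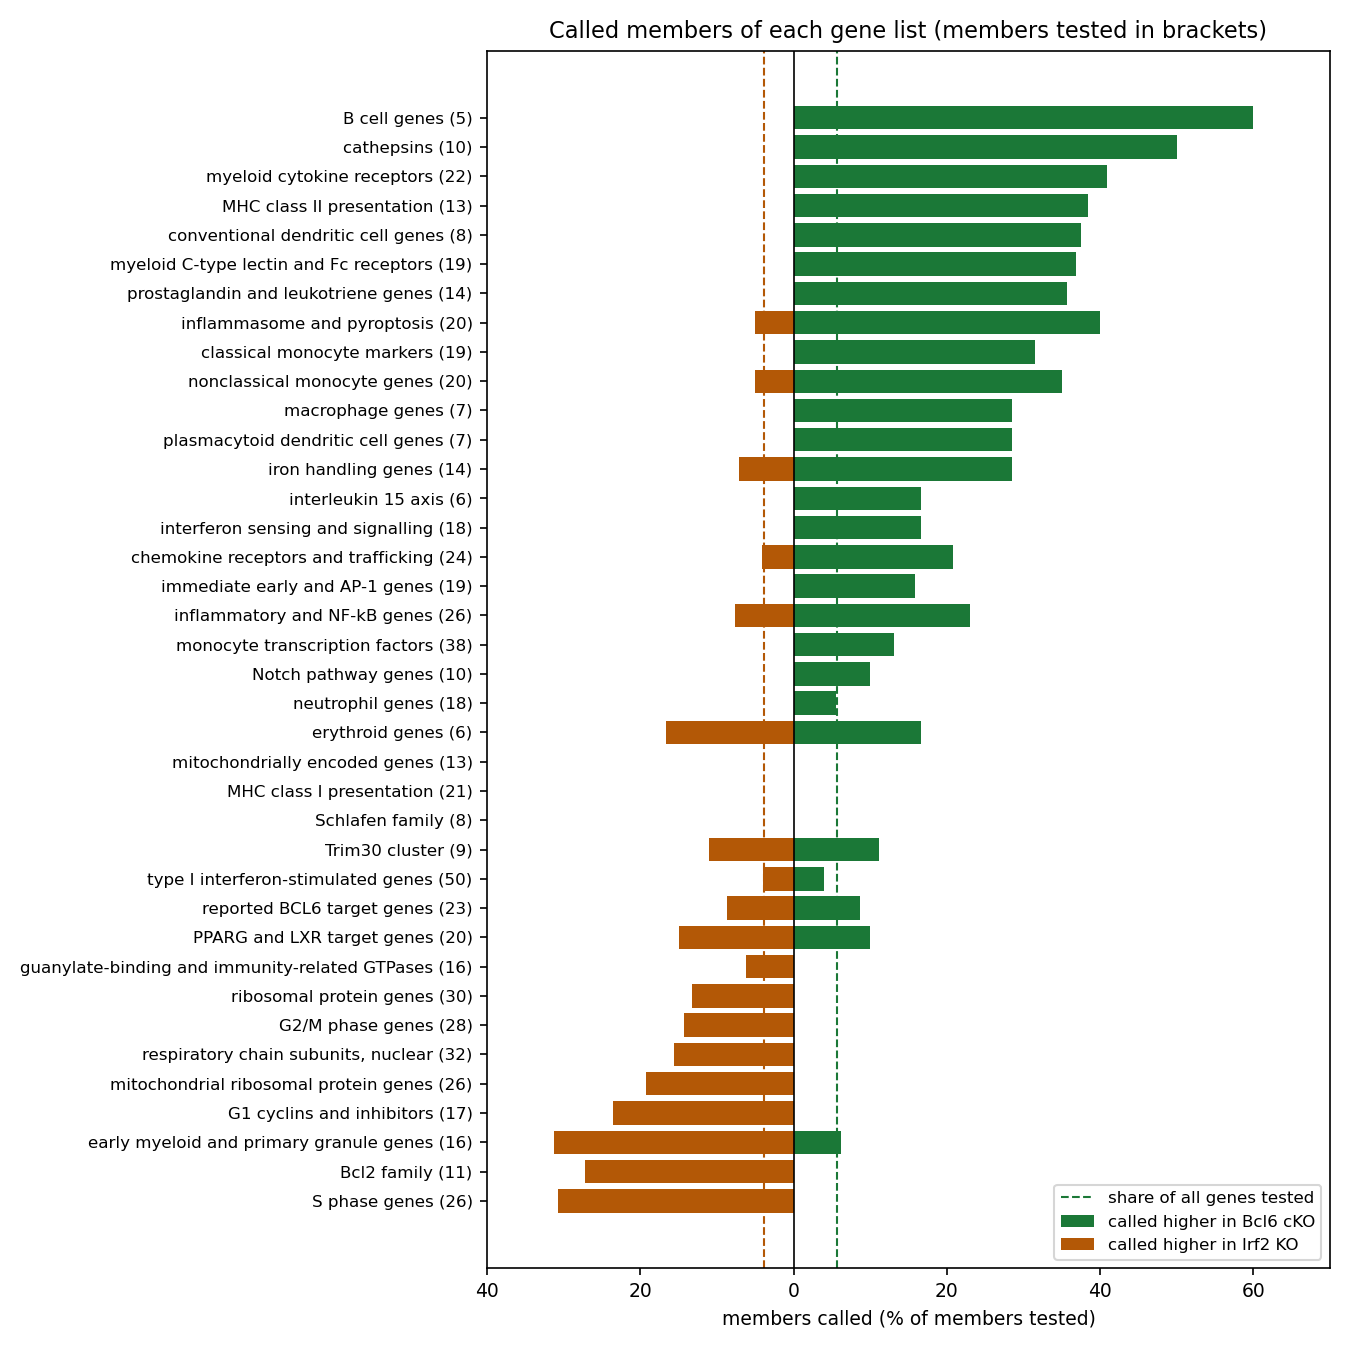
Share of the tested members of each gene list that were called (x axis, percent of members tested), to the right for members higher in the libraries labelled Bcl6 cKO and to the left for members higher in Irf2 KO; the number tested stands in brackets and lists with under 5 tested members are not drawn. Dashed lines mark the shares over all genes tested, 5.68% and 3.87%; myeloid cytokine receptors, with 9 of 22 called, lie far beyond the right line and S phase genes, with 8 of 26, beyond the left.

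The guanylate-binding and immunity-related GTPases, which attack vacuoles that hold pathogens, had a median difference of -1.40 over 16 tested genes, and 15 of the 16 had a lower level in the libraries labelled Bcl6 cKO, but only Gbp2 was called. The median was -0.66 without Irf2 KO replicate 2 and -1.68 without replicate 1. The 1 call of 16 is 6.25%, under the 9.55% of all genes tested. Gbp2 (ENSMUSG00000028270, chromosome 3, 142620602 to 142638008) lay at 4.95 and 5.09 log2 CPM in the libraries labelled Bcl6 cKO and at 9.21 and 9.81 in Irf2 KO, with WT at 3.93 and 4.25. Both Irf2 KO libraries lay far above all 4 others, by -4.49 ± 1.12 (22.4-fold, adjusted p = 0.0421). The SE of each gene pools the spread within all 4 genotypes, and the part of each genotype in it was not tested. The Nr4a1 KO replicates differed by a median of 3.56 in these genes. The median was 0.71 for WT, 0.24 for the libraries labelled Bcl6 cKO and 0.68 for Irf2 KO. For Gbp2 the Nr4a1 KO replicates lay at 3.59 and 8.18. Without Nr4a1 KO replicate 1, or without replicate 2, 8 of the 16 were called higher in Irf2 KO, and with the 2 groups alone 10 were called higher in Irf2 KO and 1 higher in the libraries labelled Bcl6 cKO. The Gbp2 call itself ended without any one of the WT, Bcl6 cKO or Irf2 KO libraries (adjusted p up to 0.192).

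Among 50 type I interferon-stimulated genes, 2 were called in each direction, 8% in all against 9.55% of all genes tested, and the median was -0.11. Rsad2, which encodes the antiviral enzyme viperin, lay at 3.71 and 4.27 log2 CPM against 7.17 and 7.38, and its neighbour Cmpk2, a mitochondrial nucleotide kinase, at 4.52 and 4.52 against 6.56 and 6.49. For both genes WT (3.07 and 4.58, and 4.51 and 4.84) lay within or near the level of the libraries labelled Bcl6 cKO. The differences were -3.29 ± 0.54 (adjusted p = 0.00983) and -2.01 ± 0.23 (adjusted p = 0.00294). The other 2 calls went the opposite way. Ddx58, which encodes the RNA sensor RIG-I, lay at 5.30 and 5.45 against 2.19 and 3.44, and Samd9l, an antiviral restriction factor, at 5.55 and 5.81 against 4.18 and 3.77. They were higher in the libraries labelled Bcl6 cKO by 2.56 ± 0.51 (adjusted p = 0.0207) and 1.70 ± 0.35 (adjusted p = 0.0227). In this list too the Nr4a1 KO replicates lay far apart, by a median of 1.65. Without either one of them 12 genes were called higher in Irf2 KO and 3 higher in the libraries labelled Bcl6 cKO. The call of Cmpk2 passed whichever library was left out, while those of Rsad2, Ddx58 and Samd9l ended without either library labelled Bcl6 cKO and without Irf2 KO replicate 2, replicate 1 or both (adjusted p up to 0.16).

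**Figure D4:**
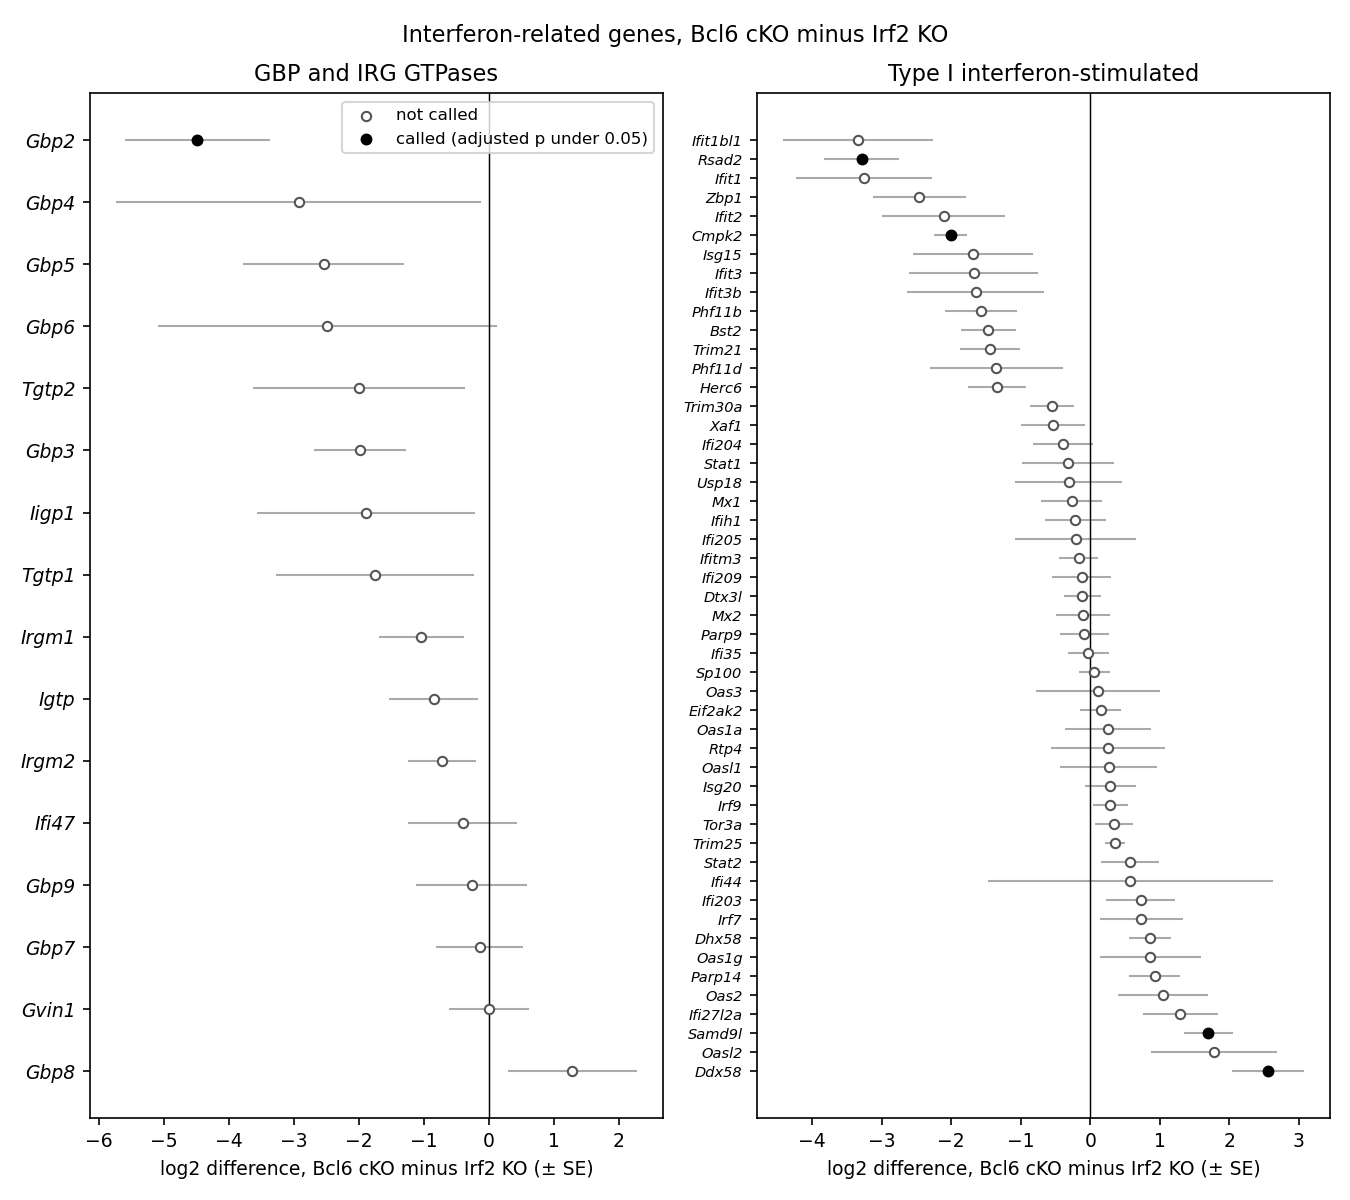
Difference of each tested gene on the log2 scale, libraries labelled Bcl6 cKO minus Irf2 KO, with its SE as a bar (x axis), for guanylate-binding and immunity-related GTPases (left) and type I interferon-stimulated genes (right). Filled points were called; the left list lies mostly below 0, whereas the right list runs from Ifit1bl1 at -3.34 to Ddx58 at 2.56.

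The Trim30 cluster on chromosome 7, a family of related antiviral Trim genes, had 1 call in each direction among 9 tested members. Trim5 lay at 4.43 and 4.33 log2 CPM against 3.09 and 3.07 (1.30 ± 0.30, adjusted p = 0.0318) and Trim12a at 5.94 and 5.91 against 6.63 and 6.68 (-0.72 ± 0.15, adjusted p = 0.0207). Both calls ended without any one of the 4 libraries compared (adjusted p up to 0.156). These genes are close relatives, so reads may have been split between them in counting. None of 8 tested Schlafen genes, which restrict viral growth and cell division, was called. Their most abundant member, Slfn2, lay at 10.18 and 10.10 against 10.00 and 10.03 (0.12 ± 0.09, adjusted p = 0.446). Genes that sense and relay interferon had 3 calls among 18, all higher in the libraries labelled Bcl6 cKO. They were Ifnar2, a chain of the type I interferon receptor, at 5.65 and 5.88 against 4.92 and 4.89 (0.86 ± 0.13, adjusted p = 0.00711), its kinase Jak1 (0.41 ± 0.10) and the phosphatase gene Ptpn6 (0.38 ± 0.09). The Ifnar2 call ended without Bcl6 cKO replicate 2 (adjusted p = 0.0721), and the other 2 without any one of the 4 libraries compared (up to 0.216) and after centring.

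Promoter sequence of these genes is shown because Irf2 binds the interferon-stimulated response element, searched here as GAAA, any 2 bases and GAAA on both strands, and because called genes that carry it went both ways. The windows hold 250 bases before and 50 bases from the start site on (RefSeq, build GRCm38.p6), each printed along its gene's strand, with the match in capitals; in all 5 it reads as the reverse complement, TTTC, 2 bases and TTTC. Gbp2 (chr3:142620413-142620712, plus strand), Rsad2 (chr12:26456403-26456702, minus strand) and Trim12a (chr7:104315446-104315745, minus strand) were higher in Irf2 KO. Ddx58 (chr4:40239776-40240075, minus strand) and Trim5 (chr7:104288057-104288356, minus strand) were higher in the libraries labelled Bcl6 cKO.
Gbp2: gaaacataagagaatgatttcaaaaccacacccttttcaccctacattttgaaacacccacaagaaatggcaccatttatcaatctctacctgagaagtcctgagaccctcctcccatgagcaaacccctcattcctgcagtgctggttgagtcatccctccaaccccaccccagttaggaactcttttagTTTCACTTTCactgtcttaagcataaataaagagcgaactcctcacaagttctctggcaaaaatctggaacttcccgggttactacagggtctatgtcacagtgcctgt
Rsad2: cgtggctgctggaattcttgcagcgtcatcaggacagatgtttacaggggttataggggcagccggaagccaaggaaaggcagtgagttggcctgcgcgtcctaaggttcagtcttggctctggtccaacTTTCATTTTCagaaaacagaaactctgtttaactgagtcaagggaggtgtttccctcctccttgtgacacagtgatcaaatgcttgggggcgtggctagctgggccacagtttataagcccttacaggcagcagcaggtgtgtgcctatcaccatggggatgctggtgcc
Trim12a: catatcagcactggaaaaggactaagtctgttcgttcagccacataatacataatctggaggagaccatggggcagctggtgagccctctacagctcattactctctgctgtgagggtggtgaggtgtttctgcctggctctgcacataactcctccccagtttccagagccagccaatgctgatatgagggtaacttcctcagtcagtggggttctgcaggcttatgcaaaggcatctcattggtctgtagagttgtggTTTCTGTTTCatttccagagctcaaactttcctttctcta
Ddx58: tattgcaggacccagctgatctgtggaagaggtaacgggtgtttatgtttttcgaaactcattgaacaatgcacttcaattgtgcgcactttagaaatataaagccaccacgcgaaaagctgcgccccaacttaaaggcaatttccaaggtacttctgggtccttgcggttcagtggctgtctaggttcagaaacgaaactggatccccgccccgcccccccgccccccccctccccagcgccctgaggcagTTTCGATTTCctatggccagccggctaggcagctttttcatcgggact
Trim5: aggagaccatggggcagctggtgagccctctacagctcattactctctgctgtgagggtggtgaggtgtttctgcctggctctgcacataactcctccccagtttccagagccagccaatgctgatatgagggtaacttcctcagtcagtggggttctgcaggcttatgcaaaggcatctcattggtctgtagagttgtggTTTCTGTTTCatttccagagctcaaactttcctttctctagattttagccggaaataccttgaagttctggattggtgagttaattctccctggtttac

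The match begins 59 bases before the start site in Gbp2 and 120 before it in Rsad2, and just inside the transcribed part in Ddx58. The windows of Trim12a and Trim5 share a stretch of 241 bases that holds the match, although the genes were called in opposite directions. Other called genes of the interferon lists had a window without a match and are not printed. They were Cmpk2, higher in Irf2 KO, and Samd9l, Ifnar2, Jak1 and Ptpn6, higher in the libraries labelled Bcl6 cKO. Of the 12752 genes, 8678 had a window by symbol, and 4.10% of those held this element. The share was 6.43% for genes called higher in the libraries labelled Bcl6 cKO and 10.0% (24 of 239) for those more than 2-fold higher. It was 3.54% for genes called higher in Irf2 KO and 5.56% (5 of 90) for those more than 2-fold higher. In these shares a gene counted when any of its windows held the element. The share per single window, over all 32851 windows of the table, was 3.44%, which is a different unit. The palindrome of TTC, any 3 bases and GAA, a core shared by STAT factors and Bcl6, was counted per gene in the same way. It was held by 8.31% of the tested genes with a window. The share was 8.89% of those called higher in the libraries labelled Bcl6 cKO and 9.26% of those called higher in Irf2 KO. Among those more than 2-fold higher its share was 11.3% (27 of 239) and 13.3% (12 of 90), and the share per single window of the table was 8.30%. These shares describe letters in a window, and no site was measured.

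Of 13 tested genes of MHC class II presentation, 5 were called and all were higher in the libraries labelled Bcl6 cKO, with a median of 0.71. H2-Aa, the class II alpha chain (chromosome 17, 34282744 to 34287823), lay at 6.08 and 6.27 log2 CPM against 2.39 and -1.91, and H2-Eb1, a beta chain, at 4.89 and 4.89 against -0.82 and -0.43. Cd74, the invariant chain, lay at 8.85 and 9.18 against 5.80 and 4.04. The libraries labelled Bcl6 cKO were tight and high, whereas the Irf2 KO replicates of H2-Aa, H2-Ab1 and Cd74 lay far from each other. Differences were 5.94 ± 1.36 for H2-Aa (adjusted p = 0.0321), 5.51 ± 0.82 for H2-Eb1 (adjusted p = 0.00703), 4.16 ± 1.10 for H2-Ab1 (adjusted p = 0.0494), 4.10 ± 0.84 for Cd74 (adjusted p = 0.0218) and 0.93 ± 0.14 for the costimulator Cd86 (adjusted p = 0.00774). Replicates of the other genotypes lay apart too, with H2-Aa at 2.47 and 4.43 in WT and at 5.35 and 8.41 in Nr4a1 KO. The H2-Ab1 call had the largest adjusted p of the 5 and was lost without either WT library and under 6 other alternatives (no trend, no floor, quantile normalization, the replicate block, voom, and GC content and length). None of the 5 passed without Bcl6 cKO replicate 1 or without replicate 2, and 2 passed without Irf2 KO replicate 2. H2-Aa, H2-Eb1, H2-Ab1 and Cd74 are also expressed at high level by B cells and dendritic cells, whose markers are given below. In bulk RNA, fewer cells of a type and less RNA per cell cannot be told apart.

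MHC class I presentation genes had no call among 21, and their median was -0.50, with 14 at a lower level in the libraries labelled Bcl6 cKO. The most abundant of them, B2m, the light chain of class I molecules, lay at 11.41 and 11.56 log2 CPM against 11.18 and 11.72 (0.04 ± 0.33, adjusted p = 0.955). Psme2, a subunit of the immunoproteasome activator, lay at 8.87 and 8.89 against 9.97 and 10.01, without overlap (-1.10 ± 0.34, adjusted p = 0.0744). The Nr4a1 KO replicates differed by a median of 1.43 in this list, and without either one of them 9 of the 21 were called higher in Irf2 KO. With the 2 groups alone 11 were.

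Genes of monocyte identity were next. Of 19 classical monocyte markers, 6 were called and all were higher in the libraries labelled Bcl6 cKO. The median of 0.39 was 0.036 without Irf2 KO replicate 1, when 1 gene was called higher in Irf2 KO, and 0.57 without Irf2 KO replicate 2. The 6 calls became 2 without either library labelled Bcl6 cKO. Fn1, the matrix protein fibronectin, lay at 10.81 and 10.92 log2 CPM against 8.95 and 8.29 (2.25 ± 0.30, adjusted p = 0.00501). Lyz2, the lysozyme gene, lay at 14.54 and 14.57 against 13.50 and 13.63 (0.99 ± 0.12, adjusted p = 0.00326). For both, WT lay at the level of the libraries labelled Bcl6 cKO and Irf2 KO stood below. Lyz2 has a close copy in Lyz1, and reads may have been split between them. Cd14, the coreceptor for bacterial lipopolysaccharide, the chemokine Ccl9, the integrin Itgam and the growth factor receptor Csf1r were the other calls. Lyz2 and Cd14 passed whichever library was left out, although the Lyz2 call ended under quantile normalization. Fn1 and Itgam were lost without either library labelled Bcl6 cKO (adjusted p up to 0.0738), Ccl9 also without Irf2 KO replicate 1 (up to 0.174) and Csf1r without any one of the 4 (up to 0.169).

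Nonclassical monocyte genes were called in 8 of 20 cases, 7 higher in the libraries labelled Bcl6 cKO and 1, Lair1, higher in Irf2 KO (median 0.39). Cx3cr1, the fractalkine receptor that marks patrolling cells, lay at 6.39 and 6.47 log2 CPM against 3.72 and 1.73, with WT above both groups at 7.27 and 7.82. The difference of 3.71 ± 0.51 (adjusted p = 0.00519) was thus one between a lesser and a greater distance below WT. Ace, the angiotensin-converting enzyme, lay at 2.02 and 2.05 against -2.07 and -2.13 (4.14 ± 0.71, adjusted p = 0.0118), within the WT range of 1.21 and 3.30 in the libraries labelled Bcl6 cKO and below it in Irf2 KO. Ear2, a ribonuclease gene, lay at 7.21 and 7.35 against 5.27 and 4.90, the adhesion receptor Adgre4 at 2.84 and 3.30 against 0.80 and 1.72, and the receptor Treml4 at 2.29 and 2.56 against 0.90 and 1.03. Ear2 was above WT (6.04 and 6.27) in the libraries labelled Bcl6 cKO, while Adgre4 and Treml4 were below WT in both groups and lowest in Irf2 KO. Pparg and Lair1 passed whichever library was left out. The calls of Cx3cr1, Ear2, Treml4 and Nr4a1 ended without either library labelled Bcl6 cKO (adjusted p up to 0.0813), as did those of Ace and Adgre4, which were also lost without Irf2 KO replicate 2 and replicate 1, respectively (up to 0.14).

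Among 38 monocyte transcription factors, 5 were called, all higher in the libraries labelled Bcl6 cKO. Bach2, a repressor of the bZIP family, lay at 1.82 and 1.88 log2 CPM against -0.29 and -1.34 (2.67 ± 0.38, adjusted p = 0.00581). Irf4, a factor of dendritic and plasma cells, lay at 2.32 and 2.30 against 1.31 and -0.36 (1.84 ± 0.46, adjusted p = 0.0415). Zeb2, a zinc-finger repressor that holds mononuclear phagocyte identity, lay at 7.88 and 8.04 against 7.30 and 7.18 (0.72 ± 0.10, adjusted p = 0.0061). In Bach2 and Irf4 the libraries labelled Bcl6 cKO lay close to WT, whereas for Zeb2 they lay above it and Irf2 KO below. Runx1 (0.66 ± 0.14) and Bach1 (0.56 ± 0.12) were the others. All 5 calls ended without Bcl6 cKO replicate 2, and all but Zeb2 also without Bcl6 cKO replicate 1 (adjusted p up to 0.192). Of 10 Notch pathway genes only Jag1, a Notch ligand, was called, at 1.56 and 1.49 against -0.26 and -1.56 (2.43 ± 0.52, adjusted p = 0.0257). That call ended without either library labelled Bcl6 cKO and without Irf2 KO replicate 2, leaving no call in the list (adjusted p at most 0.148).

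The list of reported Bcl6 targets, taken from work on lymphocytes and macrophages, had 4 calls among 23, 2 in each direction. Its median of 0.06 changed sign without Bcl6 cKO replicate 2 (-0.12) and after correction for GC content and length. Ccnd2 and Tlr4, the lipopolysaccharide receptor, were higher in Irf2 KO. Tlr4 lay at 3.57 and 3.95 log2 CPM against 4.77 and 5.30 (-1.27 ± 0.21, adjusted p = 0.0104). Ccl3, an inflammatory chemokine, lay at 5.83 and 6.43 against 3.97 and 4.46 (1.92 ± 0.48, adjusted p = 0.0414), and with Irf4 it was higher in the libraries labelled Bcl6 cKO. The Tlr4 call was lost without either library labelled Bcl6 cKO or without Irf2 KO replicate 2 (adjusted p up to 0.0847), and the Ccl3 call without any WT, Bcl6 cKO or Irf2 KO library (up to 0.238).

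The next search was limited to protein-coding genes called between the knockouts, without overlap and with a mean of at least 2 log2 CPM. Among these genes a set of 11 was called on opposite sides of WT. Both knockouts differed from WT at an adjusted p under 0.05 (limma). The comparisons with WT share the WT libraries. Over all genes tested, without those limits, 5.01% were called against WT in the libraries labelled Bcl6 cKO and 21.6% in Irf2 KO. Of the 11, 10 were above WT in the libraries labelled Bcl6 cKO and below it in Irf2 KO. Cd33, an inhibitory Siglec receptor (chromosome 7, 43524216 to 43544428), lay at 5.50 and 5.71 log2 CPM in the libraries labelled Bcl6 cKO, 4.43 and 4.43 in WT, and 1.69 and 2.35 in Irf2 KO. Il1rn, the interleukin 1 receptor antagonist, lay at 4.75 and 4.71, then 3.55 and 3.75, then 2.04 and 1.69. Cd14 lay at 6.64 and 6.49, then 5.58 and 5.29, then 4.08 and 4.75. In all of these the 3 genotypes stood in separate bands, and the separation of the knockouts from each other was part of the choice. The direct differences were 3.58 ± 0.28 for Cd33 (adjusted p = 0.000838), 2.86 ± 0.21 for Il1rn (adjusted p = 0.000672) and 2.15 ± 0.23 for Cd14 (adjusted p = 0.00223).

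The paired immunoglobulin-like receptors were in the same set. Pilra, the inhibitory member, lay at 7.71 and 7.75 log2 CPM in the libraries labelled Bcl6 cKO and at 5.59 and 5.45 in Irf2 KO, with WT at 6.19 and 5.91 (2.21 ± 0.13, adjusted p = 0.000333). Pilrb1, an activating member, lay at 6.45 and 6.47 against 4.47 and 3.90 (2.27 ± 0.19, adjusted p = 0.000998). Pilrb1 and Pilrb2 are near copies, so their reads may have been split between them. Bcl6 itself also belongs here. The remaining 5, named after their values were seen, were Pilrb2, the aldo-keto reductase gene Akr1c13, the Rac activator Dock5, Tmem154 and the selenoprotein gene Selenom. Selenom was the only one of the 11 in the reverse order, at 4.45 and 4.55 in the libraries labelled Bcl6 cKO, 5.05 and 5.0 in WT and 6.0 and 5.97 in Irf2 KO. The direct difference of all 11 passed whichever library was left out.

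**Figure D5:**
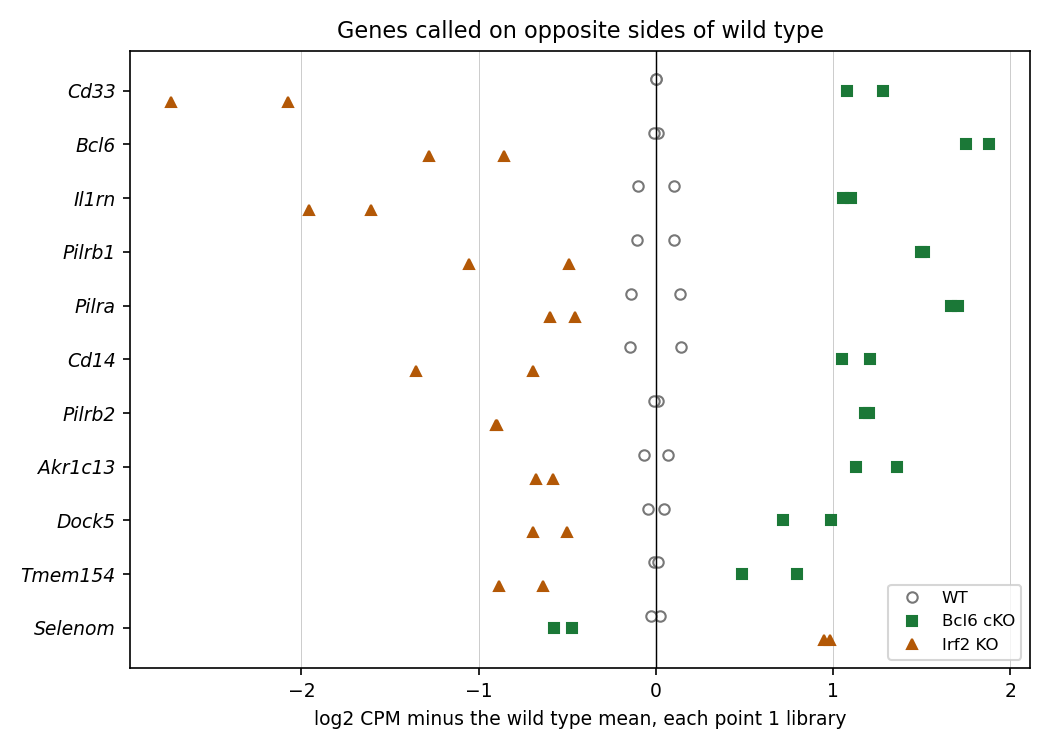
Level of the 11 genes called on opposite sides of WT, as log2 CPM minus the WT mean (x axis), with each point 1 library. Open circles are WT, squares the libraries labelled Bcl6 cKO and triangles Irf2 KO; the squares lie to the right and the triangles to the left in every gene except Selenom, where the order is reversed.

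Receptors of the myeloid surface were called in 1 direction in most lists. Of 22 cytokine receptor genes 9 were called, all higher in the libraries labelled Bcl6 cKO (median 0.55). Il17ra, the interleukin 17 receptor, lay at 7.48 and 7.69 log2 CPM against 6.14 and 6.21 (1.41 ± 0.12, adjusted p = 0.000998), and Csf3r, the granulocyte growth factor receptor, at 7.05 and 6.99 against 6.12 and 6.18 (0.87 ± 0.09, adjusted p = 0.00244). Both passed whichever library was left out. Il1rl2, the interleukin 36 receptor, lay at 4.78 and 5.03 against 2.80 and 3.24, with WT at 2.58 and 2.77 beside Irf2 KO (1.88 ± 0.24, adjusted p = 0.00384). Il1rap, the shared signalling chain of the interleukin 1 receptors, lay at 3.29 and 2.95 against 1.22 and 1.46, with WT at 2.93 and 2.55 beside the libraries labelled Bcl6 cKO (1.78 ± 0.24, adjusted p = 0.00516). The other calls, Il10ra, Il10rb, Il6st, Il6ra and Csf1r, ranged from 0.55 to 0.74. The count over the list was 3 without Bcl6 cKO replicate 1 and 3 without Bcl6 cKO replicate 2; the Il1rap call was lost without the former (adjusted p = 0.0599) and the Il1rl2 call without the latter (0.0517).

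Il15ra, which presents interleukin 15 to lymphocytes (chromosome 2, 11705290 to 11734317), was the only call among 6 tested genes of the interleukin 15 axis. It lay at 4.10 and 4.38 log2 CPM against -1.74 and 0.49, with WT at 4.11 and 4.21 (4.87 ± 0.57, 29.2-fold, adjusted p = 0.00296). The libraries labelled Bcl6 cKO matched WT, and both Irf2 KO libraries lay near the floor of the gene set. Among 19 C-type lectin and Fc receptor genes, 7 were called, all higher in the libraries labelled Bcl6 cKO (median 0.54). Clec4n, which encodes the fungal sensor Dectin-2 (chromosome 6, 123229843 to 123247021), lay at 4.06 and 4.73 against -2.07 and -1.04, with WT at 0.96 and 0.21 (5.95 ± 0.49, 61.9-fold, adjusted p = 0.000965). WT lay between the groups. Clec4a2, an inhibitory lectin, lay at 8.01 and 8.09 against 6.95 and 6.98 (1.09 ± 0.15, adjusted p = 0.0052), and Clec4b1 at 5.69 and 6.03 against 4.95 and 4.07 (1.35 ± 0.26, adjusted p = 0.0173). Clec10a, Fcgr3, Tyrobp and Fcer1g ranged from 0.36 to 0.68. Il15ra and Clec4n passed whichever library was left out, while none of the other lectin and Fc calls passed without Bcl6 cKO replicate 1 or 2 (adjusted p up to 0.192).

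Of 24 chemokine receptor and trafficking genes, 5 were called higher in the libraries labelled Bcl6 cKO and 1 higher in Irf2 KO. P2ry13, an ADP receptor, lay at 4.18 and 4.34 log2 CPM against 1.52 and 2.09, with WT at 1.86 and 1.40 (2.46 ± 0.30, adjusted p = 0.0034), so the libraries labelled Bcl6 cKO alone stood apart, and the call passed whichever library was left out. Ccr1, a receptor of inflammatory chemokines, lay at 7.60 and 7.17 against 5.96 and 6.36 (1.23 ± 0.20, adjusted p = 0.00953; 0.0817 without Bcl6 cKO replicate 1). Cx3cr1 and the integrins Itgam (0.97 ± 0.15) and Itgb2 (0.69 ± 0.14) were the other higher genes. S1pr4, a sphingosine phosphate receptor, was higher in Irf2 KO (-0.67 ± 0.12), below WT in both groups. The calls of Cx3cr1, Itgam, Itgb2 and S1pr4 ended without either library labelled Bcl6 cKO (adjusted p up to 0.134).

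Inflammasome and pyroptosis genes had 9 calls among 20, of which 8 were higher in the libraries labelled Bcl6 cKO (median 0.33). Gsdmd, which encodes the pore-forming protein gasdermin D (chromosome 15, 75862327 to 75867408), lay at 6.75 and 6.82 log2 CPM against 5.61 and 5.60, with WT at 7.16 and 7.26 (1.18 ± 0.10, adjusted p = 0.000965). Both groups were below WT, Irf2 KO by more. Casp1, the protease that cleaves gasdermin D, went the other way, at 6.65 and 6.70 against 7.92 and 8.01 with WT at 6.33 and 6.46 (-1.29 ± 0.21, adjusted p = 0.00983). Naip5, a flagellin sensor, lay at 5.39 and 5.67 against 4.50 and 4.43 (1.07 ± 0.16, adjusted p = 0.00649), and Il1b, the interleukin 1 beta gene, at 1.75 and 1.97 against -0.62 and 0.05 (2.14 ± 0.35, adjusted p = 0.00929). Nlrp3, Nlrc4, Naip6, Naip2 and Txnip ranged from 0.41 to 0.83. Naip genes are close relatives, so their reads may have been split. Only Gsdmd passed whichever library was left out. Casp1 and Il1b were lost without either library labelled Bcl6 cKO and Casp1 also without Irf2 KO replicate 2 (adjusted p up to 0.0925), and Naip5 without Bcl6 cKO replicate 2 (0.0696).

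Of 26 inflammatory and NF-kB genes, 6 were called higher in the libraries labelled Bcl6 cKO and 2 higher in Irf2 KO (median 0.36). Besides Il1rn, Cd14, Il1b and Ccl3, the higher genes were the pattern receptors Tlr2 (0.85 ± 0.21) and Tlr7 (1.23 ± 0.32). Nfkbia, the NF-kB inhibitor, lay at 6.29 and 7.37 log2 CPM against 8.03 and 8.36 (-1.37 ± 0.32, adjusted p = 0.0327). It was below WT (8.76 and 9.34) in both groups, and the libraries labelled Bcl6 cKO were lowest and far from each other. Of 19 immediate early and AP-1 genes, 3 were called, all higher in the libraries labelled Bcl6 cKO. Besides Nr4a1 they were Btg2, an antiproliferative gene, at 7.52 and 7.83 against 6.57 and 6.81 (0.99 ± 0.14, adjusted p = 0.00657), and Fosl2, an AP-1 subunit (0.69 ± 0.11). The calls of Tlr2, Tlr7 and Nfkbia ended without Bcl6 cKO replicate 1 or Irf2 KO replicate 1 and others (adjusted p at most 0.193), Btg2 without Bcl6 cKO replicate 2 (0.0674) and Fosl2 without either library labelled Bcl6 cKO or the second Irf2 KO replicate (up to 0.088).

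Metabolic lists held single large differences. Of 10 cathepsin genes, which encode lysosomal proteases, 5 were called, all higher in the libraries labelled Bcl6 cKO, and 2 after centring. None passed without Bcl6 cKO replicate 1 or without replicate 2, and 2 passed without any one of the WT or Irf2 KO libraries. Ctso (chromosome 3, 81932601 to 81956725) had 790 and 914 reads in the libraries labelled Bcl6 cKO and 0 and 16 reads in Irf2 KO, with WT at 4.04 and 4.33 log2 CPM. Its level in the libraries labelled Bcl6 cKO was 3.68 and 4.13, near WT, and it was almost absent from Irf2 KO (8.07 ± 1.20 with a pseudocount of 0.5 reads, adjusted p = 0.00711; up to 0.0738 without either library labelled Bcl6 cKO). Ctsb lay at 10.66 and 10.64 against 9.97 and 10.13 (0.60 ± 0.09, adjusted p = 0.00696). Of 14 prostaglandin and leukotriene genes, 5 were called higher in the libraries labelled Bcl6 cKO. Hpgd, whose enzyme breaks down prostaglandins, lay at 4.42 and 4.88 against 2.36 and 1.06, with WT above both at 5.35 and 6.20 (2.94 ± 0.41, adjusted p = 0.00547). The prostaglandin E2 receptors Ptger2 (3.98 and 3.74 against 2.51 and 2.48) and Ptger4 (3.50 and 3.53 against 1.84 and 2.39), thromboxane synthase Tbxas1 (1.16 ± 0.22) and Alox5ap (0.64 ± 0.10) were the others. Hpgd was lost without Bcl6 cKO replicate 2 (adjusted p = 0.0666), Ptger2 without Bcl6 cKO replicate 1 (0.0623) and the other 3 without either (up to 0.209), and Ctsb without either (up to 0.0629).

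Among iron handling genes, Slc40a1, the iron exporter ferroportin, lay at 3.0 and 2.71 log2 CPM against -0.22 and -0.29, with WT at 1.86 and 1.34 (3.12 ± 0.42, adjusted p = 0.00516). Tfrc, the transferrin receptor that takes iron up, lay at 3.44 and 3.51 against 4.39 and 4.81, with WT at 3.29 and 3.0 (-1.13 ± 0.20, adjusted p = 0.0137). Of these 3 genotypes, Irf2 KO had the lowest level of the exporter and the highest of the importer. Slc11a1, Hfe and the ferritin gene Ftl1 were also higher in the libraries labelled Bcl6 cKO, so that 4 of 14 genes were called in that direction and 1 in the other. Of 20 PPARG and LXR target genes, Pparg and its partner Rxra (0.76 ± 0.17) were higher in the libraries labelled Bcl6 cKO. The 3 lipid synthesis genes Scd2 (-1.24 ± 0.26), Sqle (-1.23 ± 0.26) and Fasn (-1.07 ± 0.15, adjusted p = 0.00546) were higher in Irf2 KO. The list median was 0.02 and its sign changed after centring (-0.01). The calls of Slc40a1, Tfrc, Hfe, Slc11a1, Ftl1, Rxra, Scd2 and Sqle ended without either library labelled Bcl6 cKO (adjusted p up to 0.237) and that of Fasn without Bcl6 cKO replicate 2 (0.0595).

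Cell cycle genes were called in 1 direction only, higher in Irf2 KO. All 26 S phase genes had a lower level in the libraries labelled Bcl6 cKO (median -0.40) and 8 were called. Mcm2, a subunit of the replicative helicase, lay at 6.60 and 6.42 log2 CPM against 7.16 and 7.13 (-0.63 ± 0.12, adjusted p = 0.015), Ung, a uracil repair enzyme, at 1.40 and 1.85 against 2.70 and 2.58 (-1.01 ± 0.24, adjusted p = 0.0337), and Gins2, a helicase cofactor, at 5.85 and 5.70 against 6.41 and 6.37 (-0.62 ± 0.12, adjusted p = 0.0187). For Mcm2, WT (6.92 and 7.15) lay beside Irf2 KO. The median was negative under every alternative, but the count was 1 without Bcl6 cKO replicate 1, 0 without Bcl6 cKO replicate 2, 0 without either Irf2 KO library and 4 without either WT library. Of 17 G1 cyclins and inhibitors, 4 were called. Beside Ccnd2 these were Ccne1, cyclin E1, at 3.69 and 3.78 against 4.91 and 5.65 (-1.54 ± 0.24, adjusted p = 0.0085), E2f3 (-0.83 ± 0.19) and Cdk4 (-0.46 ± 0.09), and these last 3 were lost without either library labelled Bcl6 cKO (adjusted p up to 0.168). Of 28 G2/M genes, Cdc20, Cenpa, Bub1b and Ube2c were called, from -0.36 to -0.64. Ube2c, which drives mitotic protein breakdown, lay at 7.67 and 7.72 against 8.05 and 8.06, with WT at 7.95 and 8.03. Each G2/M call ended without Bcl6 cKO replicate 1 and without Irf2 KO replicate 2 (adjusted p at most 0.228 over all libraries).

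Of 11 tested Bcl2 family genes, the proapoptotic genes Bak1 (3.90 and 3.67 log2 CPM against 4.79 and 5.16), Bid (7.01 and 6.74 against 7.58 and 7.62) and Bax (6.54 and 6.67 against 7.05 and 7.14) were called higher in Irf2 KO. Bak1 was above WT in Irf2 KO (WT at 3.58 and 3.95), whereas for Bax the libraries labelled Bcl6 cKO were below WT (7.09 and 7.05). The differences were -1.19 ± 0.23, -0.73 ± 0.11 and -0.49 ± 0.10 (adjusted p from 0.00806 to 0.0207), and all 3 were lost without Bcl6 cKO replicate 2 or Irf2 KO replicate 2 (up to 0.136).

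Of 16 tested early myeloid and primary granule genes, 5 were called higher in Irf2 KO and 1 higher in the libraries labelled Bcl6 cKO. Of all 16, 9 had the higher level in Irf2 KO and 7 the lower (median -0.23). Prtn3, proteinase 3, lay at 9.36 and 9.07 log2 CPM against 10.29 and 10.82 (-1.34 ± 0.17, adjusted p = 0.00384), Ctsg, cathepsin G, at 6.49 and 6.45 against 7.54 and 7.94 (-1.27 ± 0.14, adjusted p = 0.0027), and Mpo, myeloperoxidase, at 8.57 and 8.35 against 9.30 and 9.30 (-0.85 ± 0.11, adjusted p = 0.00384). For these genes WT lay nearer to the libraries labelled Bcl6 cKO, and the calls passed whichever library was left out. Ms4a3, a gene of granulocyte and monocyte progenitors, lay at 4.78 and 4.63 against 6.18 and 7.55 (-2.16 ± 0.41, adjusted p = 0.0172). Igfbp4 differed by -0.62 ± 0.15, and Cd34, a stem and progenitor antigen, was higher in the libraries labelled Bcl6 cKO, with levels of 3.08 and 2.99 against 2.21 and 1.44 (1.21 ± 0.28, adjusted p = 0.0343). These 3 calls ended without either library labelled Bcl6 cKO or Irf2 KO replicate 2 (adjusted p at most 0.176).

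Genes of translation and respiration were called in 1 direction, higher in Irf2 KO. Of 30 ribosomal protein genes, 29 had a lower level in the libraries labelled Bcl6 cKO (median -0.25) and 4 were called. The largest was Rpl14, at 10.59 and 10.62 log2 CPM against 11.06 and 11.06 (-0.46 ± 0.08, adjusted p = 0.0117). After correction for GC content and length, 1 of the 30 was called. Of 26 mitochondrial ribosomal genes 5 were called (median -0.29), with Mrpl12 at 6.26 and 6.57 against 7.23 and 7.36 (-0.88 ± 0.14, adjusted p = 0.00928). Of 32 nuclear genes of the respiratory chain 5 were called (median -0.11), with Cox8a, a cytochrome oxidase subunit, at 6.94 and 7.72 against 8.39 and 8.65 (-1.19 ± 0.22, adjusted p = 0.0167). In Mrpl12 and Cox8a the Nr4a1 KO libraries were far lower than both groups, at 3.91 and 3.86 and at 4.91 and 5.13. None of 13 mitochondrially encoded genes was called, with mt-Co1 at 10.80 and 11.02 against 10.89 and 10.77 (0.08 ± 0.13, adjusted p = 0.73) and a median of 0.07. Across 12740 genes the difference had a Spearman rho of 0.205 with transcript length and -0.0446 with GC content. No ribosomal protein gene passed without any one of the 4 libraries compared. Without a trend of the prior variance no ribosomal protein gene and no respiratory gene passed. The mitochondrial ribosomal and the respiratory counts were both 0 without Bcl6 cKO replicate 1 or without Irf2 KO replicate 2, and 2 and 3, respectively, without either WT library or Bcl6 cKO replicate 2. The calls of Rpl14, Mrpl12 and Cox8a were lost without Bcl6 cKO replicate 1 or Irf2 KO replicate 2 (adjusted p at most 0.104).

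Markers of other cell types were lower in Irf2 KO in part, and their part in the results above was not tested. Among 5 tested B cell genes, Vpreb3 (0.67 and 0.75 log2 CPM against -2.21 and -4.45), Cd79a (1.61 and 1.52 against -0.03 and -1.28) and Igkc (2.14 and 4.26 against -0.19 and 0.84) were called higher in the libraries labelled Bcl6 cKO. The defining marker Ms4a1, a B cell surface protein, lay below 1 CPM in all 4 libraries, at -1.22 and -1.03 against -1.31 and -1.16, and WT was higher than both groups at 0.47 and 0.42. The summed level of the list was 829 to 854 CPM against 734 to 789. Of 7 genes of plasmacytoid dendritic cells, Ly6d (1.10 and 1.59 against -3.14 and -5.19) and Bcl11a (4.19 and 4.23 against 3.12 and 3.24) were called the same way. The summed level went the other way, at 435 to 493 CPM against 684 to 703, although 5 of the 7 had a higher level in the libraries labelled Bcl6 cKO (median 0.73) and 2 a lower one. The lowest difference, -1.47, was that of Bst2, which is also among the type I interferon-stimulated genes. Of 8 genes of conventional dendritic cells, Cd7 (3.07 ± 0.69), Sirpa (0.82 ± 0.13) and Clec10a were called, with summed levels of 263 to 310 against 154 to 162 CPM. Their defining marker Xcr1 lay at 0.08 and -0.30 against -0.77 and -0.75 log2 CPM, and Clec9a at -0.54 and -0.56 against 0.93 and -0.50. The cell types' calls other than Ly6d ended without Bcl6 cKO replicate 2 (adjusted p at most 0.211 over all libraries).

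Neutrophil genes had 1 call among 18, Csf3r, and a summed level of 1272 to 1483 CPM in the libraries labelled Bcl6 cKO against 665 to 1382 in Irf2 KO. The Irf2 KO replicates differed by a median of 1.53 in this list, with S100a8 at 7.29 and 8.78 log2 CPM. The list median of 0.63 became -0.17 without Irf2 KO replicate 1, and without Irf2 KO replicate 2 it was 1.24 with 8 calls. Ly6g, the defining marker, lay at -0.80 and -0.37 against -0.67 and 1.09. Of 6 erythroid genes, Hba-a1, a globin gene with a near copy, was called higher in the libraries labelled Bcl6 cKO (1.85 and 1.24 against -0.72 and 0.07) and Tfrc higher in Irf2 KO. Summed levels were 20.4 to 29.9 against 24.5 to 34.8 CPM, and Tfrc was the only member with a mean of at least 2 log2 CPM. The other 5 had a higher level in the libraries labelled Bcl6 cKO (list median 1.30). The defining marker Hbb-bs lay at 2.7 and 1.2 against 0.06 and 0.91. The Hba-a1 call ended without either library labelled Bcl6 cKO and without Irf2 KO replicate 1 (adjusted p at most 0.108). None of 3 basophil and mast cell genes was called, with Prss34 at 2.78 and 3.61 against -0.26 and 2.28 (adjusted p = 0.116) and Mcpt8 at 1.51 and 1.67 against 0.27 and 2.11. The 1 tested gene of T and NK cells, Nkg7, lay at 4.38 and 4.08 against 3.92 and 4.05 (0.24 ± 0.21, adjusted p = 0.502). Other lymphocyte genes lay under the floor and were lower in Irf2 KO when no floor was set (limma), with Lck, a T cell kinase, at 48 and 63 reads against 4 and 1 (adjusted p = 0.0277), the adhesion receptor Cd2 at 94 and 125 against 12 and 18 (0.0292) and the NK receptor Klrd1 at 28 and 19 against 3 and 3 (0.045). These 3 were named after their values were seen. Of 7 macrophage genes, Slc40a1 and Adgre1, the F4/80 antigen, were higher in the libraries labelled Bcl6 cKO. Adgre1 lay at 7.13 and 7.04 against 6.09 and 5.89, with WT at 7.11 and 7.18 (1.09 ± 0.11, adjusted p = 0.00189), and passed whichever library was left out. The summed level of the tested macrophage genes was 245 to 252 CPM against 148 to 175. Mertk, a receptor for dying cells and a defining macrophage marker, fell just under the floor with a mean of -0.080 over the 8 libraries, yet lay at 3.45 and 3.94 in the libraries labelled Bcl6 cKO against -0.29 and -3.07.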

How the data were processed

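RNA-seq libraries of Ly6C-high bone marrow monocytes were available for 4 genotypes with 2 libraries each, made with the SMARTer Ultra Low kit and read in pairs, per the labels. Per the submitters' processing notes, bcl2fastq, STAR, Subread featureCounts, Salmon and limma were used with build mm10; their order and settings are not given there. The authors deposited 1 table of log2 CPM values per gene and library, of which 13744 of 13789 rows were kept after 45 repeated rows with identical values were dropped. Every value came within 0.01 of a whole read once a pseudocount of 0.5 reads and a library size were put back. That size was taken from the library's lowest value and was not its summed reads (46617756 to 62633123). WT 1 had 59063694 summed reads and 57.98 reads per CPM, and Nr4a1 KO 1 had 48579784 and 51.02. The size thus lay below the summed reads in the former and above them in the latter, so the deposited values rest on a scaled library size. The kit does not mark strand, so reads of overlapping antisense genes cannot be told apart. The authors' own comparisons with WT were not used.

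limma 3.58.1 (R 4.3.3) was fitted to the deposited values of all 8 libraries with a mean per genotype and a trend of the prior variance, and the difference between the libraries labelled Bcl6 cKO and Irf2 KO was tested with Benjamini-Hochberg adjustment over 12752 genes with a mean of at least 0; "called" means an adjusted p under 0.05. Adjusted p-values and standard errors come from this fit unless an alternative is named. Those given for a library left out or for no floor come from that alternative's own fit. Positions come from GENCODE M21 on GRCm38, promoter windows from RefSeq. Summaries and figures used Python 3.11.15, pandas 2.3.3 and matplotlib 3.10.9. The fit was tested on simulated data.

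The rule for named genes took the targeted genes and the 12 largest differences in each direction. These 12 were called, protein coding, with groups not overlapping and a mean of at least 2 log2 CPM. The rule also took up to 4 called members of each list, or the 2 most abundant where none was called. Last came the 6 largest differences called on opposite sides of WT, under the same limits as the 12 largest. Others are named to complete a list's calls. The genes, lists and tests were chosen with earlier results of these data known. Alternatives were no trend, other floors, quantile normalization, centring, the 2 groups alone, a replicate block and voom on recovered reads. Values corrected for GC content and length were also fitted, and each library was left out in turn. The correction took a smooth curve on GC content and log2 length out of each library's values before the fit.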

Additional observations from a re-analysis of the deposited data

How the results depend on the processing

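The count of 1218 calls fell to 537 (353 higher in the libraries labelled Bcl6 cKO, 184 higher in Irf2 KO) without a trend of the prior variance, and rose to 1947 (873 higher in Irf2 KO) when only the 2 groups compared were fitted. Leaving out 1 library gave 138 to 1647 calls, with 100 to 929 higher in the libraries labelled Bcl6 cKO and 36 to 718 higher in Irf2 KO; the lowest counts came without a library labelled Bcl6 cKO and the highest without a Nr4a1 KO library. The cause of these changes was not tested. No filter, a floor of 2 log2 CPM, quantile normalization, centring, voom and the correction for GC content and length gave 1180 to 1263 calls. No called gene changed sign under any alternative, but for those that left out a library this was fixed beforehand, because the groups did not overlap. The uncalled B2m changed sign under 2 alternatives and the uncalled mt-Co1 under 1. Of 128 named genes, 50 lost their call without a trend, 83 without either library labelled Bcl6 cKO, 41 and 63 without an Irf2 KO library, and 27 passed whichever library was left out. Replicate numbers are shared by the labels, but same-numbered deviations of the libraries labelled Bcl6 cKO and Irf2 KO correlated at 0.0599, so they were not taken as pairs; a replicate block gave 1186 calls (705 and 481). With 47.9 to 61.8 reads per CPM, genes near the floor rest on few reads, and 2 libraries per genotype set the precision.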

Other observations

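The gene groups here were assembled after the values had been seen, so their counts are descriptions and support nothing. Of 13 tested paired immunoglobulin-like, Siglec and CD300 receptor genes, 10 were called, all higher in the libraries labelled Bcl6 cKO, with a median difference of 1.20 and 5 to 10 calls when 1 library was left out. Of 27 genes of polyamine, nucleotide and one-carbon synthesis, 12 were called, all higher in Irf2 KO (median -0.46, 1 to 15 calls when 1 library was left out). Among these, Srm, which makes spermidine, differed by -1.35 ± 0.22, Odc1, the first enzyme of polyamine synthesis, by -1.20 ± 0.23 and Shmt2, the mitochondrial serine hydroxymethyltransferase, by -0.99 ± 0.14. Of 15 mitochondrial chaperone and protease genes 5 were called, all higher in Irf2 KO, with the chaperonin gene Hspd1 at -0.96 and 1 to 5 calls when 1 library was left out. Among 10 Toll-like receptor genes, Tlr2, Tlr7, Tlr8 and Tlr13 were higher in the libraries labelled Bcl6 cKO, while Tlr1 (-1.63 ± 0.21) and Tlr4 were higher in Irf2 KO. The first 4 calls were all lost without either library labelled Bcl6 cKO or without Irf2 KO replicate 1, and in part without Irf2 KO replicate 2. They became 1 after correction for GC content and length or without a trend.

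Some genes fell under the floor because they were low in most of the 8 libraries. With no floor, 50 of the 992 such genes were called, 40 higher in the libraries labelled Bcl6 cKO and 10 higher in Irf2 KO. Mertk, named after its values were seen, had 676 and 798 reads in the libraries labelled Bcl6 cKO, 39 and 6 in Irf2 KO and 37 and 26 in WT (5.38 ± 1.01, adjusted p = 0.0178 with no floor, limma). The tight junction gene Cldn1 had 376 and 498 reads against 15 and 2. Tlr3, the sensor of double-stranded RNA, had 36 and 54 reads against 0 and 0. In the other direction Clic5, a chloride channel-like gene, lay at -1.74 and -3.01 log2 CPM against 3.97 and 4.95 in Irf2 KO.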
